A study of Mus musculus with 8 samples.

Results

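Alternative activation is the state that macrophages enter when interleukin-4 (IL-4) or interleukin-13 (IL-13) binds a receptor built on the IL-4 receptor alpha chain. The receptor activates Janus kinases and the transcription factor STAT6, and the factors KLF4 and PPAR gamma are known to act beside STAT6 in mouse macrophages. The transcripts induced encode secreted lectins and resistin-like proteins, a transglutaminase, endocytic receptors and arginase. Described here are 8 genes listed as alternative activation markers, other than the mannose receptor Mrc1 and arginase Arg1: Il4ra, Klf4, Pparg, Tgm2, Retnla, Chil3, Mgl2 and Folr2. They were chosen by symbol, with earlier results of these data known. Each was represented by 1 row of the array with a single gene symbol, and they were 8 of the 19938 genes tested.

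RNA came from peritoneal macrophages of wild-type C57/Bl6 mice, obtained by lavage, pooled from 10 mice and kept overnight in RPMI with fetal calf serum. The 4 groups were macrophages given recombinant HRG (histidine-rich glycoprotein, a multidomain protein of blood plasma) at 1 µg/ml for 6 h (HRG 6 h), untreated cells after 6 h (basal 6 h), HRG-treated cells after 24 h (HRG 24 h) and untreated cells after 24 h (basal 24 h). There were 2 samples in each group and 1 Affymetrix array for each sample, and all groups shared the pooled cells and the medium. Separate cultures are not stated for the replicates, so p-values reflect the spread among these arrays, possibly a technical one, and precision is limited by their number.

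Levels are the deposited log2 values, in which a difference of 1 is a 2-fold change. Each difference, of HRG from basal or of 24 h from 6 h, is given with its standard error (SE) in a limma fit of all 8 arrays, n = 2 arrays per group. "Rose" and "fell" are used where the Benjamini-Hochberg adjusted p over the 19938 genes was under 0.05. The labelled cell type was checked against 9 measured macrophage markers, among them Adgre1, Cd68, Csf1r and Itgam. Their mean log2 level lay between 12.39 and 12.81 on the 8 arrays, and 0 of the 9 were among the dimmest 25% of genes. So were 0 of 11 B cell and 0 of 10 mesothelial and fibroblast markers, 1 of 10 mast cell and 1 of 12 dendritic cell markers. For T and NK cell markers it was 4 of 11, and for eosinophil and neutrophil markers 5 of 13. The check thus shows bright macrophage markers and does not show that other cell types were absent. Replicate arrays correlated at r = 0.996 to 0.998 over all probe sets of the array, as a description.

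Transcripts of 2 of the 8 genes rose with HRG at 24 h: Folr2, the folate receptor beta of macrophages, by 1.13 ± 0.12 (2.19-fold) and Tgm2, the protein cross-linking enzyme tissue transglutaminase, by 0.94 ± 0.11 (1.92-fold). Tgm2 was also higher at 6 h, by 0.64 ± 0.11 (1.56-fold), while the transcription factor Klf4 fell at 6 h by 0.57 ± 0.12 (1.49-fold lower). The secreted markers Retnla and Chil3, the lectin Mgl2, the nuclear receptor Pparg and the cytokine receptor chain Il4ra did not pass the test at either time. At 6 h, 1 of the 8 rose, against a background of 0.431% of all genes that rose, and 1 of the 8 fell, against 0.818% of all genes that fell. At 24 h, 2 of the 8 rose and 0 fell, against 2.43% and 1.05% of all genes by the same limma test. An unadjusted limma p under 0.05 was found for 4 of the 8 at 6 h and 4 at 24 h, beside 11.0% and 12.7% of all genes. The median difference of the 8 genes was 0.13 at 6 h and 0.23 at 24 h, beside 0.02 and -0.02 over all genes tested. Since the 8 genes were chosen with earlier results of these data known, these shares and medians are descriptions and no test of the set.

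**Figure D1:**
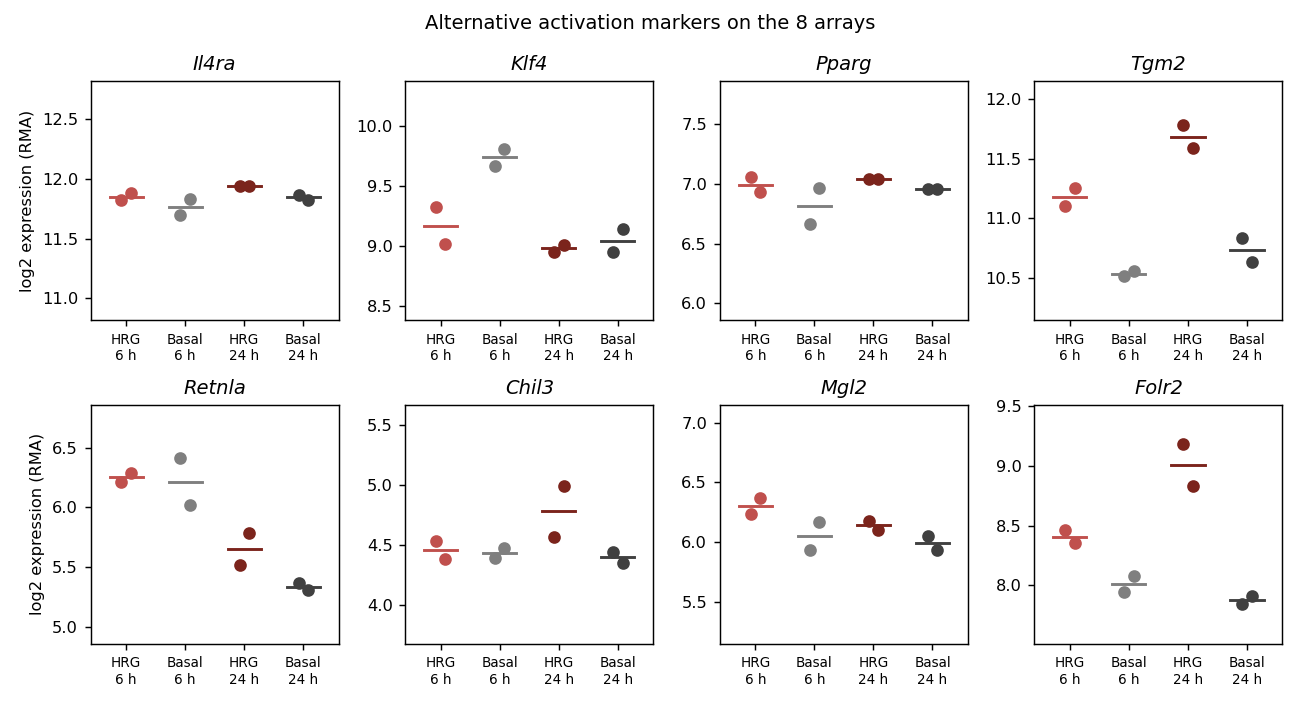
Deposited log2 level (RMA) of the 8 genes on each array. Points are single arrays, horizontal bars are means of 2 arrays, the groups are HRG and basal at 6 h and at 24 h, and every panel spans 2 log2 units. Tgm2, Folr2 and Mgl2 had both HRG arrays above both basal arrays at each time, an order of 20.0% of all genes at 6 h and 19.1% at 24 h. Folr2 was furthest apart at 24 h (9.18 and 8.84 against 7.84 and 7.91), and Klf4 stood highest in basal samples at 6 h.

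Il4ra encodes the alpha chain shared by the receptors for IL-4 and IL-13. Its log2 level was 11.82 and 11.89 on the HRG arrays at 6 h, against 11.69 and 11.83 on the basal arrays. At 24 h it was 11.94 and 11.94 with HRG and 11.87 and 11.82 in basal samples. The arrays of HRG and basal samples overlapped at 6 h, and both HRG arrays lay above both basal arrays at 24 h, as they did for 19.1% of all genes. The difference was 0.09 ± 0.09 at 6 h (adjusted p = 0.824) and 0.10 ± 0.09 at 24 h (adjusted p = 0.819) by limma, with 95% intervals of -0.12 to 0.29 and -0.11 to 0.30. Without single arrays of the groups compared, the 6 h difference ran from 0.021 (without basal 6 h replicate 1) to 0.16 (without basal 6 h replicate 2). The 4 group means spanned 0.18, the narrowest range among the 8 genes.

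Klf4 encodes a zinc finger transcription factor that acts with STAT6 in alternatively activated mouse macrophages and is also induced soon after many stimuli. It had log2 levels of 9.32 and 9.01 on the HRG arrays at 6 h, against 9.67 and 9.81 on the basal arrays, so that both HRG arrays lay below both basal arrays. That order held for 18.3% of all genes. At 24 h the levels were 8.95 and 9.01 with HRG and 8.94 and 9.14 in basal samples, which overlapped. The fall at 6 h (-0.57 ± 0.12, limma adjusted p = 0.0439) lay close to the threshold: without single arrays it ran from -0.73 to -0.42, and the call was lost without HRG 6 h replicate 1 (-0.73, adjusted p = 0.0507) or 2 (-0.42, adjusted p = 0.419), basal 6 h replicate 1 (-0.65, adjusted p = 0.0967) or 2 (-0.50, adjusted p = 0.125), and HRG 24 h replicate 1 or 2 (-0.57, adjusted p = 0.0785 in either case), which lend their spread to the fit. With the replicate number as a block the adjusted p was 0.0503, and in a fit of only the 4 arrays compared it was 0.0830. The HRG effect at 24 h was -0.06 ± 0.12 (adjusted p = 0.934), and it exceeded that at 6 h by 0.51 ± 0.17, which did not pass (adjusted p = 0.230).

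Pparg encodes PPAR gamma, a nuclear receptor for fatty acid derivatives that pairs with the retinoid X receptors. Levels were 7.05 and 6.93 on the HRG arrays at 6 h, against 6.67 and 6.96 in basal samples, which overlapped. At 24 h they were 7.04 and 7.04 with HRG and 6.96 and 6.96 in basal samples, with both HRG arrays above, as for 19.1% of all genes. The differences were 0.18 ± 0.11 (adjusted p = 0.640) and 0.08 ± 0.11 (adjusted p = 0.885), and the 95% intervals by limma, -0.06 to 0.42 and -0.16 to 0.32, put the ratio at no more than 1.34-fold and 1.25-fold. The replicate arrays of Pparg were within 0.01 of each other at 24 h, while its basal arrays at 6 h were 0.30 apart, so that the 6 h difference was 0.031 without basal 6 h replicate 1 and 0.33 without replicate 2.

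Tgm2 encodes tissue transglutaminase, which cross-links proteins and is induced by IL-4 in both mouse and human macrophages. The HRG arrays held 11.10 and 11.26 at 6 h, against 10.52 and 10.56 on the basal arrays. At 24 h they held 11.78 and 11.59, against 10.84 and 10.64. No HRG array overlapped a basal array at either time, and the lowest HRG value of the whole series (11.10 at 6 h) was above the highest basal value (10.84 at 24 h). Both HRG arrays lay above both basal arrays for 20.0% of all genes at 6 h and 19.1% at 24 h. Folr2 also had its lowest HRG value (8.35 at 6 h) above its highest basal value (8.08 at 6 h). The share of genes with every HRG value above every basal value was not counted. The rise was 0.64 ± 0.11 at 6 h (adjusted p = 0.0174) and 0.94 ± 0.11 at 24 h (adjusted p = 0.000539) by limma. At 6 h the call was lost without HRG 6 h replicate 1 (0.72, adjusted p = 0.0624), HRG 6 h replicate 2 (0.56, adjusted p = 0.217) or basal 6 h replicate 1 (0.62, adjusted p = 0.0883). At 24 h it was kept in all 17 alternatives, with values from 0.84 to 1.04. The effect at 24 h exceeded that at 6 h by 0.30 ± 0.16, which did not pass (adjusted p = 0.530, 95% interval -0.04 to 0.64).

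Retnla encodes the secreted resistin-like molecule alpha and Chil3 the secreted chitinase-like lectin Ym1, and both are standard markers of IL-4-treated mouse macrophages that are direct STAT6 targets. Their promoters are shown because they carry the STAT motifs found among these genes (RefSeq, GRCm38.p6, 250 bases before to 50 after the start, 5′ to 3′ along the gene). Both strands were searched, and capitals mark STAT motifs (TTC and GAA with 3 or 4 bases of any kind between them) and CACCC boxes or their reverse complement GGGTG.
Retnla, chr16:48842359-48842658, plus strand: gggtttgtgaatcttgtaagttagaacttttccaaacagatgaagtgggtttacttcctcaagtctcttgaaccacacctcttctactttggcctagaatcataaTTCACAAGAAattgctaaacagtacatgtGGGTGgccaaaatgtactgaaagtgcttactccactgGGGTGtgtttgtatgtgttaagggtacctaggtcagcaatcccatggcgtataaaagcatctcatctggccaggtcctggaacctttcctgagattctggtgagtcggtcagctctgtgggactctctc
Chil3, chr3:106167515-106167814, minus strand: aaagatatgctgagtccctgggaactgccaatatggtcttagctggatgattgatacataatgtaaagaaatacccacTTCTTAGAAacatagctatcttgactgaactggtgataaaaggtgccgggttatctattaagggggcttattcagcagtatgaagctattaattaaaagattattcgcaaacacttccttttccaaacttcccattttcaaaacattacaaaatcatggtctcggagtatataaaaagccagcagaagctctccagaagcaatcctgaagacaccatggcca
The Retnla window held TTCACAAGAA, with a 4-base spacer, beginning at -145 from the start, and 6.95% of 32851 promoters in the table held such a match. The Chil3 window held TTCTTAGAA, with a 3-base spacer, beginning at -172, and 8.30% of promoters held one. The other 8 windows, from 5 of the other genes with an entry (Tgm2 had none), held neither spelling. Also searched were TTNNGNAA of C/EBP factors (in 40.7% of promoters), GAGGAA of PU.1 (28.3%) and AGGTCA repeated after 1 base, bound by PPAR and retinoid X receptor pairs (0.0396%), and that repeat was in 0 of the windows of these genes. A match is a description of the letters and shows no binding.

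Neither secreted marker passed the test against basal. Retnla levels were 6.22 and 6.29 on the HRG arrays at 6 h, against 6.41 and 6.02 on the basal arrays, which enclosed them. At 24 h they were 5.52 and 5.78 with HRG and 5.37 and 5.31 in basal samples, with both HRG arrays above, as for 19.1% of all genes. The Retnla difference was 0.04 ± 0.13 at 6 h (adjusted p = 0.964) and 0.31 ± 0.13 at 24 h (adjusted p = 0.339) by limma. At 24 h it was 0.18 without HRG 24 h replicate 2 and 0.45 without replicate 1. Chil3 levels were 4.53 and 4.38 on the HRG arrays at 6 h, against 4.39 and 4.47 in basal samples, and 4.57 and 5.00 on the HRG arrays at 24 h, against 4.44 and 4.35. The Chil3 difference at 6 h was 0.03 ± 0.13 (adjusted p = 0.972). The higher value at 24 h rested mainly on HRG 24 h replicate 2, without which the difference was 0.17 in place of 0.39 ± 0.13 (adjusted p = 0.184), and 0.60 without replicate 1. Both rows were dim: 19.0% of genes had a lower mean level than Retnla and 5.29% a lower one than Chil3. Changes of dim rows can be understated on such arrays, and levels of different rows are not comparable as amounts of RNA. The 95% intervals at 24 h, 0.02 to 0.60 for Retnla and 0.10 to 0.67 for Chil3, put the fitted ratio at no more than 1.52-fold and 1.59-fold.

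Mgl2 encodes a galactose-binding C-type lectin (CD301b) carried by IL-4-treated macrophages and by a subset of dendritic cells. Levels were 6.24 and 6.37 on the HRG arrays at 6 h, against 5.94 and 6.17 on the basal arrays, and 6.18 and 6.10 on the HRG arrays at 24 h, against 6.05 and 5.93. Both HRG arrays lay above both basal arrays at each time, an order that 20.0% of all genes showed at 6 h and 19.1% at 24 h. The differences, 0.25 ± 0.11 at 6 h (adjusted p = 0.417) and 0.15 ± 0.11 at 24 h (adjusted p = 0.713), did not pass by limma. They were 0.13 at 6 h without basal 6 h replicate 1 and 0.088 at 24 h without basal 24 h replicate 2. Mgl2 was also dim, with 23.6% of genes below it.

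Folr2 encodes folate receptor beta, a membrane-anchored receptor that takes up folate and marks tissue macrophages. RefSeq gives it a pair of starts, both shown because Folr2 had the largest HRG effect of the 8 genes. Capitals mark CACCC boxes, here in the reverse spelling GGGTG.
Folr2, upstream start, chr7:101857141-101857440, minus strand: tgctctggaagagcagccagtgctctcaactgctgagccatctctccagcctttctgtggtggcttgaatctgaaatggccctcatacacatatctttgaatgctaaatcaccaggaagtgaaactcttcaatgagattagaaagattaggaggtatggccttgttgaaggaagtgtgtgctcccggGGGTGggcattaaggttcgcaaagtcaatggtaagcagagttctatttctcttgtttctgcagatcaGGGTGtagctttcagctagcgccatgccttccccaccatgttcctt
Folr2, downstream start, chr7:101845282-101845581, minus strand: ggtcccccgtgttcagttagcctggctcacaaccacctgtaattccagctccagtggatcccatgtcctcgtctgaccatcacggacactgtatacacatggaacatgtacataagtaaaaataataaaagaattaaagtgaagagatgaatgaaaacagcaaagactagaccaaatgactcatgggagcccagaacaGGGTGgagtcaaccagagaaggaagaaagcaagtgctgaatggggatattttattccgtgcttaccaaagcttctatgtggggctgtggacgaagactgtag
The CACCC box, which Krüppel-like factors can bind, occurred in both windows, as it did in 57.5% of all promoters. The downstream window also held an AP-1 motif, TGANTCA, beginning at -74 from the start, found in 7.81% of promoters. The array row does not tell these starts apart.

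Folr2 levels were 8.46 and 8.35 on the HRG arrays at 6 h, against 7.95 and 8.08 on the basal arrays. At 24 h they were 9.18 and 8.84 with HRG and 7.84 and 7.91 in basal samples. HRG arrays lay above basal arrays at both times, with the widest gap at 24 h. That order held for 20.0% of all genes at 6 h and 19.1% at 24 h. The difference at 6 h was 0.40 ± 0.12, which did not pass (limma adjusted p = 0.180), and at 24 h Folr2 rose by 1.13 ± 0.12 (adjusted p = 0.000296), between 0.96 and 1.31 over 17 alternatives that all kept the call. The effect at 24 h exceeded that at 6 h by 0.74 ± 0.17 (adjusted p = 0.0573), short of the threshold. That difference was called in 5 of 16 alternatives, with adjusted p between 0.0274 and 0.246.

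**Figure D2:**
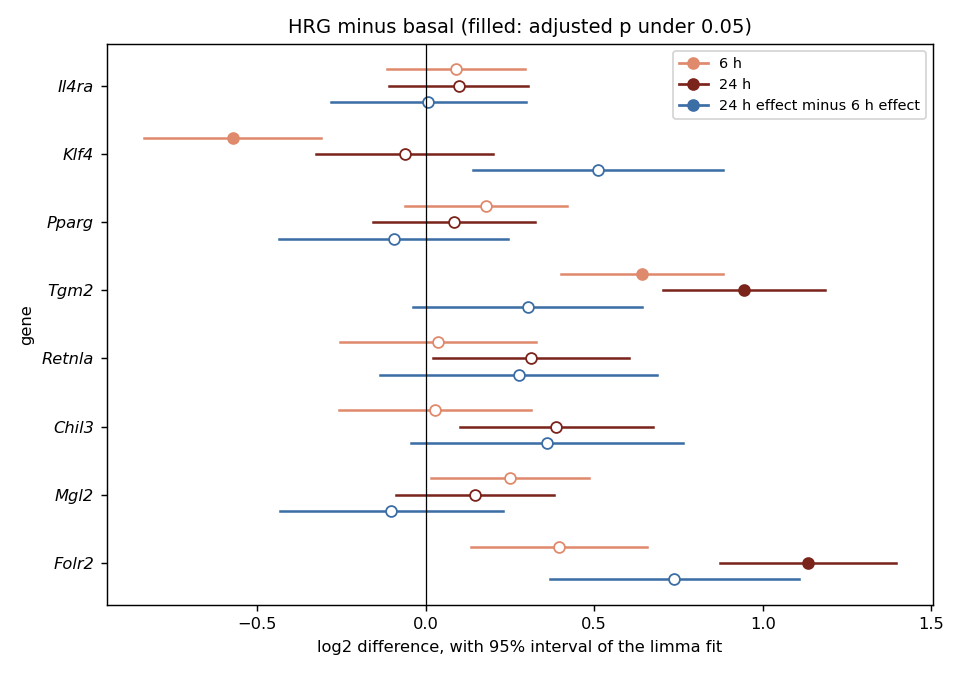
HRG minus basal on the log2 scale (horizontal axis) for the 8 genes at 6 h and at 24 h, and the difference between these effects. Bars are 95% intervals of the limma fit and filled points have an adjusted p under 0.05. Folr2 at 24 h (1.13), Tgm2 at 24 h (0.94) and 6 h (0.64), and Klf4 at 6 h (-0.57) are filled.

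The comparison of 24 h with 6 h gives the change of the markers with time in culture. In basal samples Retnla fell by 0.88 ± 0.13 (adjusted p = 0.00135), with levels of 5.37 and 5.31 at 24 h against 6.41 and 6.02 at 6 h. Klf4 fell by 0.70 ± 0.12 (adjusted p = 0.00294), with 8.94 and 9.14 at 24 h against 9.67 and 9.81 at 6 h. Both calls were kept in every alternative that tested them. Markers of several cell types fell over the same interval in basal samples. Of B cell markers 9 of 11 fell (8.11 and 7.72 at 24 h, against 8.79 and 8.73 at 6 h, as mean log2 levels of the list). So did 7 of 13 markers of small peritoneal and monocyte-derived macrophages, 5 of 10 mast cell markers and 5 of 12 dendritic cell markers. Of these lists, 1 gene rose, the dendritic cell marker Clec9a. Of 9 macrophage markers 2 rose and 2 fell, and of 11 large peritoneal macrophage markers 1 rose and 2 fell. Among T and NK cell markers 1 of 11 fell, and among eosinophil and neutrophil markers 1 of 13 rose and 1 fell. Of 10 mesothelial and fibroblast markers 0 passed. The part of these cell types in the Retnla and Klf4 values was not tested. The other 6 genes did not pass in basal samples, where 0 of the 8 rose and 2 fell, against 3.80% and 5.48% of all genes by limma.

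In HRG samples 3 genes passed over the same interval. Folr2 rose by 0.60 ± 0.12 (adjusted p = 0.00983) and Tgm2 by 0.50 ± 0.11 (adjusted p = 0.0157), and Retnla fell by 0.60 ± 0.13 (adjusted p = 0.0167). Thus 2 of the 8 rose and 1 fell in HRG samples, against 4.41% and 2.87% of all genes by limma. In HRG samples 1 of the 11 B cell markers rose and 0 fell, 2 of the 13 small macrophage markers rose and 2 fell, 3 of the 10 mast cell markers rose and 1 fell, and 2 of the 12 dendritic cell markers rose and 1 fell. The 3 calls depended on single arrays: Retnla was no longer called without HRG 6 h replicate 1 (-0.64, adjusted p = 0.0801), HRG 6 h replicate 2 (-0.57, adjusted p = 0.109) or HRG 24 h replicate 1 (-0.47, adjusted p = 0.167). Tgm2 was not called without HRG 6 h replicate 1 (0.43, adjusted p = 0.163) or HRG 24 h replicate 1 (0.41, adjusted p = 0.152), and Folr2 was not called without HRG 6 h replicate 2 (0.54, adjusted p = 0.0863) or HRG 24 h replicate 1 (0.43, adjusted p = 0.104). Chil3 (0.32 ± 0.13, adjusted p = 0.194) passed in 1 of 16 alternatives, without HRG 24 h replicate 1 (0.54, adjusted p = 0.0467). Klf4 changed by -0.19 ± 0.12 in HRG samples (adjusted p = 0.469). The change with time in HRG samples minus that in basal samples is the same quantity as the difference of the HRG effects given above, and it passed for 0 of the 8 genes, whereas 1.02% of all genes were higher and 0.451% lower by that test. Of the 8, 2 had an unadjusted limma p under 0.05, namely Folr2 (0.74 ± 0.17) and Klf4 (0.51 ± 0.17), as had 11.0% of all genes.

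**Figure D3:**
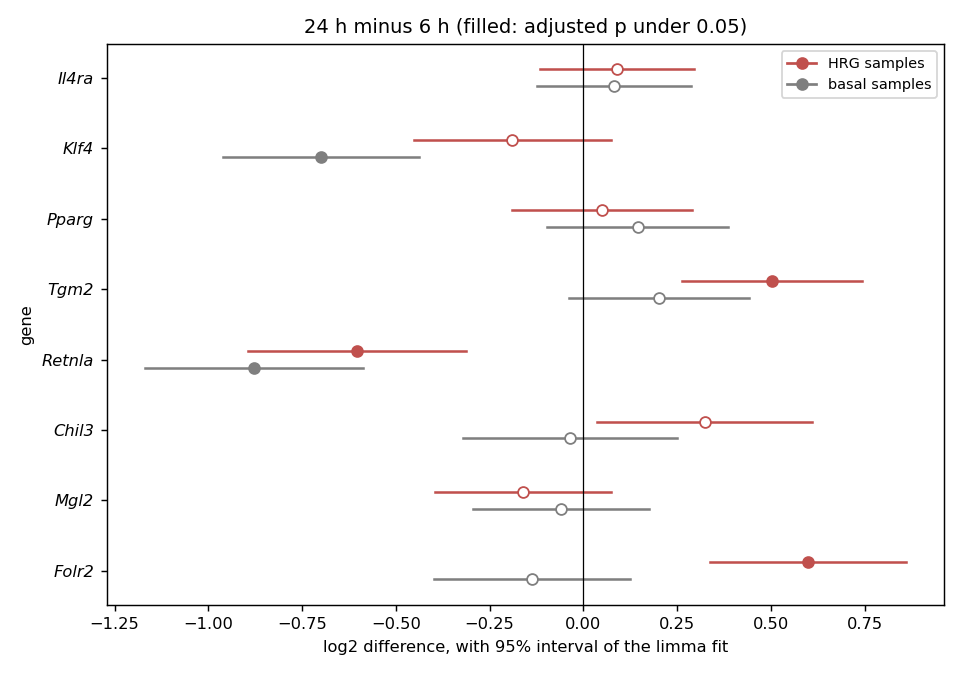
Change from culture time, 24 h minus 6 h on the log2 scale (horizontal axis), for the 8 genes in HRG samples and in basal samples. Bars are 95% intervals of the limma fit and filled points have an adjusted p under 0.05. Retnla lay below 0 in both (-0.60 with HRG, -0.88 in basal samples), Klf4 fell in basal samples (-0.70), and Folr2 (0.60) and Tgm2 (0.50) rose with HRG.

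The order of the group means differed between the genes. Tgm2 ran, from low to high, from basal 6 h (10.54 ± 0.03, mean ± SD, n = 2) over basal 24 h (10.74 ± 0.14) and HRG 6 h (11.18 ± 0.11) to HRG 24 h (11.68 ± 0.14), and no neighbouring groups overlapped. Folr2 ran from basal 24 h (7.88 ± 0.05) over basal 6 h (8.01 ± 0.09) and HRG 6 h (8.41 ± 0.08) to HRG 24 h (9.01 ± 0.25), again without overlap between neighbours, although the basal pair did not differ by the test (adjusted p = 0.602). Klf4 was highest in basal 6 h (9.74 ± 0.10), while HRG 6 h (9.17 ± 0.22), basal 24 h (9.04 ± 0.14) and HRG 24 h (8.98 ± 0.04) had lower means, with overlap between HRG 6 h and basal 24 h and between basal and HRG 24 h. Retnla was lowest in basal 24 h (5.34 ± 0.04), followed by HRG 24 h (5.65 ± 0.19), and its basal 6 h (6.22 ± 0.28) and HRG 6 h (6.25 ± 0.05) groups overlapped. The share of all genes without overlap between neighbouring groups was not counted.

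Genes most like each member were ranked by Pearson's r over the 8 arrays, among 2113 other genes whose group means spanned at least 0.5, as a description of these arrays and with the group structure shared by all. For Folr2 they were Pltp, phospholipid transfer protein (r = 0.994), Galnt9 (0.989) and Abcg3 (0.988). Pltp held 12.55 and 12.37 on the HRG arrays at 24 h, against 11.84 and 11.90 in basal samples. For Tgm2 they were the metalloprotease Adam8 (r = 0.986), the chemokine Cxcl14 (0.983) and fibronectin, Fn1 (0.978). For Klf4 they were Gadd45a (0.986), the tryptophanyl-tRNA synthetase Wars (0.978) and Herpud1 (0.973). For Retnla they were Cd24a (0.979), Ifit3b (0.978) and Saa2 (0.974). The other 4 members spanned less than 0.5 and were not matched.

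Closest relatives of the 8 genes were read on their own rows, since near-identical sequences could share probes. Chil4 (Ym2) and Clec10a (Mgl1), the close paralogs of Chil3 and Mgl2, did not pass at 6 h (0.06 ± 0.13 and 0.09 ± 0.11) or at 24 h (0.19 ± 0.13 and 0.10 ± 0.11). How much signal these rows share was not tested. Retnlb, Retnlg and Retn, of the resistin family, lay between -0.06 and 0.14 in HRG minus basal over both times. Folr1 and Izumo1r, related to Folr2 by family, lay between 0.03 and 0.13. Among transglutaminases F13a1, the A chain of clotting factor XIII, rose by 1.42 ± 0.15 at 24 h (2.68-fold, adjusted p = 0.000303), after 0.60 ± 0.15 at 6 h (adjusted p = 0.0972). Tgm1 stood at 0.52 ± 0.13 at 24 h (adjusted p = 0.0507) and -0.33 ± 0.13 at 6 h (adjusted p = 0.344). Of 23 paralogs measured, 0 rose and 0 fell at 6 h (2 with an unadjusted p under 0.05, beside 11.0% of all genes), and 1 rose and 0 fell at 24 h, by limma. Their median differences were 0.09 and -0.01.

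In the list of IL-4 and IL-13 receptor signalling, 18 of 20 genes were measured. At 6 h, 0 rose and 1 fell, namely the transcription factor Batf (-0.52 ± 0.11, adjusted p = 0.0465). At 24 h, 2 rose and 0 fell, namely the cytokine-induced inhibitor Cish (0.42 ± 0.10, adjusted p = 0.0435) and the phosphatase Ptpn6 (0.37 ± 0.09, adjusted p = 0.0452). The ligands Il4 (-0.12 ± 0.10 at 6 h and -0.03 ± 0.10 at 24 h) and Il13 (-0.09 ± 0.10 and 0.07 ± 0.10), and the factor Stat6 (-0.09 ± 0.09 and 0.02 ± 0.09), given here for their roles, did not pass. Medians were -0.06 at 6 h and 0.09 at 24 h. With culture time Il13ra1, the partner chain of Il4ra for IL-13, rose in HRG samples (0.94 ± 0.11, adjusted p = 0.000267) and in basal samples (0.44 ± 0.11, adjusted p = 0.0244), while Irf4 fell by 0.58 ± 0.12 with HRG and by 1.46 ± 0.12 in basal samples and Jak2 by 0.55 ± 0.09 and 0.70 ± 0.09.

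Among 34 measured other alternative activation markers, Mrc1 and Arg1 included, 3 rose and 0 fell at 6 h: the scavenger receptor Stab1 (0.74 ± 0.10), Arg1 (0.70 ± 0.10) and the β-glucan receptor Clec7a (0.63 ± 0.10). At 24 h, 10 rose and 1 fell, led by Mrc1 (1.47 ± 0.12), F13a1, the chemokine Ccl24 (1.41 ± 0.18) and the proton pump subunit Atp6v0d2 (0.86 ± 0.13), and the lysosomal lipase Lipa was the member that fell. Arg1 was at 0.27 ± 0.10 at 24 h (adjusted p = 0.228). Their medians, 0.08 at 6 h and 0.18 at 24 h, stood beside 0.13 and 0.23 for the 8 genes. Of 18 classical activation markers measured, 0 rose and 5 fell at 6 h, among them Il12b, Il6, Il23a and Cd40 at -1.20 ± 0.15, -0.94 ± 0.13, -0.79 ± 0.13 and -0.71 ± 0.13, and 2 rose and 0 fell at 24 h, namely the costimulatory ligand Cd86 (0.52 ± 0.10) and the interferon regulatory factor Irf1 (0.41 ± 0.10). The classical list had medians of -0.32 and 0.16.

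The list of PPAR and retinoid X receptor genes held the receptors, their coactivators and genes they are known to control. Of 22 measured, 1 rose and 0 fell at 6 h, the oxidised lipoprotein receptor Olr1 (1.51 ± 0.10, adjusted p = 0.000102), and 5 rose and 0 fell at 24 h. At 24 h these were led by the fatty acid binding protein Fabp5 (1.08 ± 0.13), Olr1 (1.02 ± 0.10), Fabp4 (0.79 ± 0.11) and the retinoid X receptor Rxrg (0.71 ± 0.10), while the median was -0.01. Rxra, the main retinoid X receptor of macrophages, was at 0.01 ± 0.10 and 0.02 ± 0.10, and Ppara and Ppard did not pass.

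Of the other Krüppel-like factors, 0 of 16 rose and 0 fell at 6 h by limma (5 with an unadjusted p under 0.05), with values from -0.45 to 0.23 and a median of -0.08. Klf7 rose at 24 h by 0.43 ± 0.11 (adjusted p = 0.0455). In the folate list, where Folr2 supplies uptake, 19 of 21 genes were measured. At 6 h, 0 rose and 3 fell, the mitochondrial enzymes Mthfd2 (-0.86 ± 0.12) and Aldh1l2 (-0.86 ± 0.10) and the thymidylate synthase Tyms (-0.55 ± 0.10). At 24 h, 1 rose, the folate dehydrogenase Aldh1l1 (0.81 ± 0.14), and 2 fell, Mthfd1l (-0.62 ± 0.10) and Mthfd2 (-0.52 ± 0.12). The folate medians were 0.01 and -0.11.

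**Figure D4:**
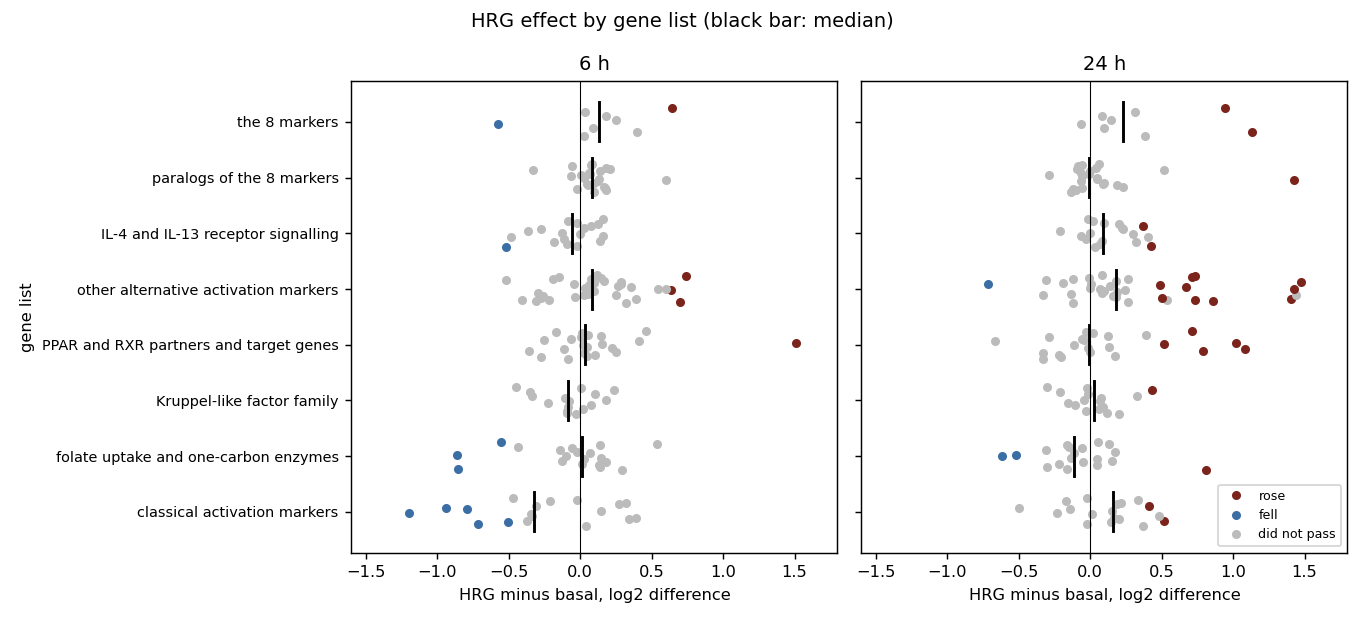
HRG minus basal on the log2 scale (horizontal axes) at 6 h (left) and 24 h (right) for the 8 markers and 7 related gene lists (vertical axis), some of which share genes. Each point is a gene, coloured by whether it rose, fell or did not pass by limma, and black bars are medians. At 24 h, 2 of the 8 markers and 10 of 34 other alternative activation markers rose, and at 6 h 5 of 18 classical markers fell.

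Some marker lists of peritoneal cells also differed between HRG and basal samples, and not alike at both times. At 24 h, 8 of 13 measured markers of small peritoneal and monocyte-derived macrophages rose and 0 fell. They were F13a1, H2-Aa, H2-Ab1, H2-Eb1, Ms4a4c, Itgax, Plac8 and Lyz1, and whether other cells contributed to them was not tested. Mean log2 levels of the list at 24 h were 8.84 and 8.79 on the HRG arrays, against 8.35 and 8.06 on the basal arrays. At 6 h 0 of the 13 passed by limma (4 with an unadjusted p under 0.05), and the list stood at 8.84 and 8.82 with HRG and 8.84 and 8.81 in basal samples. Of the B cell markers 6 of 11 rose at 24 h (8.64 and 8.37 against 8.11 and 7.72), and of the mast cell markers 5 of 10 (9.62 and 9.31 against 8.85 and 9.07). The macrophage list stood at 12.81 and 12.78 with HRG and 12.50 and 12.48 in basal samples at 24 h, and 2 of its 9 genes rose. Of 12 dendritic cell markers, 0 passed at 24 h by limma (4 with an unadjusted p under 0.05, beside 12.7% of all genes). Of 11 markers of large peritoneal macrophages, 4 rose (Vsig4, Timd4, Nt5e and Tgfb2) and 1 fell (F5) at 24 h. At 6 h, when Tgm2 also rose, 0 of the 11 B cell markers rose and 1 fell, and the list stood at 8.37 and 8.37 on the HRG arrays, against 8.79 and 8.73 on the basal arrays. Of the large peritoneal macrophage markers, 3 of 11 rose at 6 h (Nt5e by 1.01 ± 0.10, Tgfb2 by 0.83 ± 0.13 and Vsig4 by 0.79 ± 0.15) and 1 fell (F5, at -0.79). The list stood at 10.06 and 10.08 on the HRG arrays at 6 h, against 9.89 and 9.81 on the basal arrays. Of the 9 macrophage markers, Mertk rose at 6 h (0.81 ± 0.10) and 0 fell. At 6 h 2 of 12 dendritic cell markers and 2 of 11 T and NK cell markers fell. No member of the T and NK cell, the eosinophil and neutrophil, or the mesothelial and fibroblast lists passed at 24 h by limma (2 of 11, 1 of 13 and 3 of 10 with an unadjusted p under 0.05). In whole-culture RNA, fewer cells of a type and less RNA per cell cannot be told apart, and the part of these cells in the Folr2 and Tgm2 values was not tested.

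**Figure D5:**
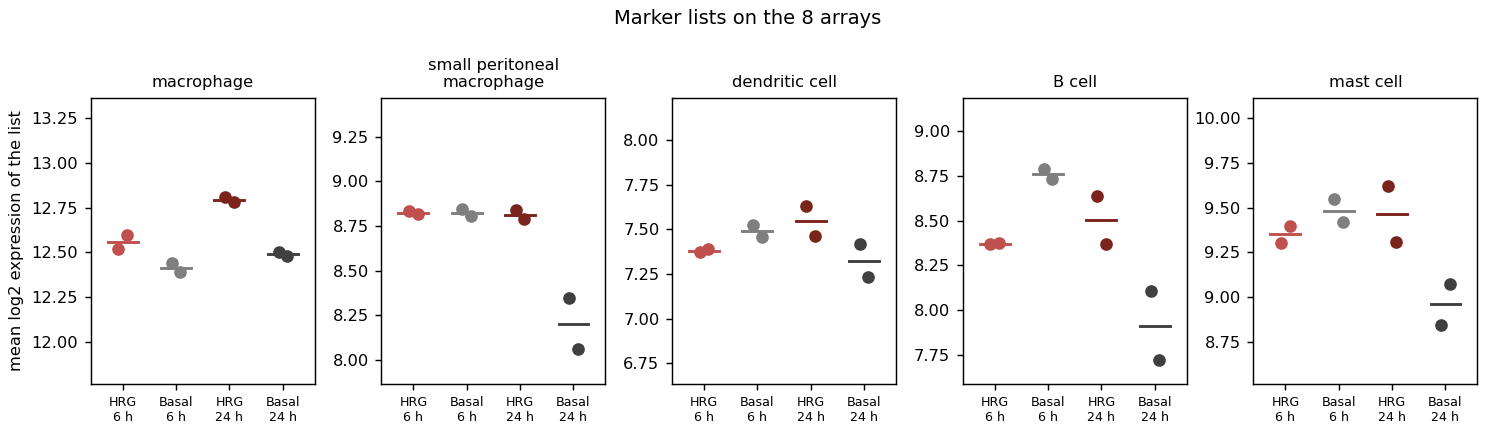
Mean log2 level of 5 marker lists (vertical axis) on each array, by group. Points are single arrays, bars are means of 2 arrays and every panel spans 1.6 log2 units. The small macrophage list at 24 h lay at 8.84 and 8.79 with HRG, above 8.35 and 8.06 in basal samples, while at 6 h the groups lay between 8.81 and 8.84.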

How the data were processed

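Total RNA was turned into biotinylated cDNA for the arrays, per the labels' protocols. The authors deposited log2 values. The submitters' processing notes name RMA, limma and Affymetrix Expression Console, with versions and genome build not given in the sources used here. RMA corrects background, quantile-normalizes arrays and summarises probes, and the medians of the 8 arrays lay between 7.18 and 7.29.

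Of 28853 rows, 21789 had 1 symbol in the platform annotation, 1621 several and 5443 none. Rows with several or none were left out, and the brightest row was used for the 999 genes with several, giving 19938 genes. Gene IDs matched a RefSeq table of GRCm38.p6 (names and promoters only) for 21698 rows. All groups came from sample titles, and no array was left out.

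In R 4.3.3, limma 3.58.1 fitted 1 coefficient per group (4 residual and 7.81 prior degrees of freedom), tested 5 contrasts two-sided with eBayes, and was tested on simulated data with known changes. Members and lists were chosen with earlier results of these data known. Named genes were the 8 members, their paralogs, up to 4 called genes per list and comparison, and the 3 genes most like a member. Alternatives were a replicate block, median centring, another quantile normalization, trend and robust options in eBayes, leaving out the 30% of genes with the lowest means, means over a gene's rows, all rows tested singly, fitting only the 4 arrays compared, leaving out each array, and, added after seeing the data, each array's lower quartile as a covariate. In the promoters, 7 motifs were searched.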

Additional observations from a re-analysis of the deposited data

Results flagged for a closer look

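For 0 of the 8 members did the limma test find HRG effects that differed between the times, beside 1.02% of all genes higher and 0.451% lower. An unadjusted limma p under 0.05 was found for 2 members and for 11.0% of all genes. Among the list genes named by rule, 15 had an HRG effect that differed between 24 h and 6 h by the limma test of that difference (log2, 24 h minus 6 h). For other alternative activation markers the differences were 1.19 for Mrc1, 1.17 for Atp6v0d2, 1.14 for Ccl22, 0.78 for Ccl7 and -1.002 for Lipa. Fabp5 and Fabp4, carriers of fatty acids, differed by 1.20 and 1.14, Irf4 by 0.89, Tgm1 by 0.85 and Klf3 by 0.67, and the folate enzyme Aldh1l2 by 0.69. Of the classical markers, Il12b differed by 0.96, Cd86 by 0.89, Irf1 by 0.72 and Cd80 by 0.65. Marker lists of cell types were outside the naming rule. By the same test 8 of 11 B cell, 4 of 10 mast cell and 3 of 13 small macrophage markers were higher and 0 lower. So were 2 of 12 dendritic cell, 2 of 11 large peritoneal macrophage and 1 of 11 T and NK cell markers, with 0 lower. Of 9 macrophage markers 0 passed. Groups of 2 arrays were too small to test single samples as outliers.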

How the results depend on the processing

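With 8 other settings, single arrays left out and the lower quartile covariate (chosen after seeing the data), the 24 h rises of Folr2 and Tgm2 and the basal falls of Klf4 and Retnla kept their calls wherever they were tested. Retnla, Chil3 and Mgl2 were dropped with the dimmest 30% of genes. With Retnla dropped, 1 member was called lower between 24 h and 6 h in basal samples and 0 in HRG samples. The fall of Klf4 at 6 h gave 0 members called lower with the replicate block and with only the 4 arrays compared. The difference of the HRG effects called 1 member, Folr2, higher with trend and robust eBayes, renewed quantile normalization, median centring and the dim filter. Genes called at 6 h numbered 249, and 492 with trend and robust eBayes, 155 with only the 4 arrays compared and 488 with the covariate. For the difference of the effects 294 genes were called, against 547 and 481 with trend and with the covariate, and for 24 h against 6 h with HRG 1452, against 2459 with the covariate. Without single arrays the genes called ran from 21 to 287 (HRG at 6 h), 182 to 781 (HRG at 24 h), 56 to 404 (difference of effects), 1124 to 1817 (time, basal) and 529 to 1680 (time, HRG). Members called ran from 0 to 1 higher and 0 to 1 lower at 6 h, 0 to 1 higher for the difference, and 1 to 2 higher and 0 to 1 lower for time with HRG. The genes called moved by over 1.5 times without HRG 6 h replicate 1 or 2 (73 and 21 at 6 h, 120 and 88 for the difference, 529 and 676 for time with HRG) and without HRG 24 h replicate 1 or 2 (130 in either case at 6 h, 182 and 404 at 24 h, 56 and 141 for the difference, 666 and 635 for time with HRG). They did so too without basal 6 h replicate 1 (62 at 6 h, 1168 for time in basal samples) and basal 24 h replicate 2 (298 at 24 h, 128 for the difference, 1124 for time in basal samples). A lone array was assumed to vary like the other groups. The causes were not tested.

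Signs turned for uncalled differences near 0. Renewed quantile normalization gave -0.010 for Retnla and -0.023 for Chil3 at 6 h and -0.043 for Il4ra in the difference of effects, and the covariate gave -0.023 for Chil3 at 6 h. Without single arrays the 6 h difference ran from -0.16 to 0.23 for Retnla and from -0.048 to 0.10 for Chil3, and that at 24 h from -0.16 to 0.034 for Klf4. The difference of effects ran from -0.24 to 0.053 for Pparg, -0.22 to 0.013 for Mgl2 and -0.061 to 0.076 for Il4ra. Time in basal samples ran from -0.082 to 0.0095 for Chil3, -0.17 to 0.054 for Mgl2 and -0.0031 to 0.29 for Pparg, and time with HRG from -0.013 to 0.11 for Pparg. With the replicate number as a block the genes called at 6 h and 24 h numbered 242 and 725. Deviations of same-numbered arrays correlated between -0.33 and 0.41 over the 6 pairs of groups. The correlations were positive among HRG 6 h, basal 6 h and HRG 24 h (0.24 to 0.41). Those of basal 24 h with each of these groups were negative (-0.33 to -0.20). With signs mixed in this way, the correlations cannot decide whether the number paired the samples. Apart from Klf4 at 6 h the block changed no call of a member.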
